A study of Mus musculus with 32 samples.

Results

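The 10 genes of the EGF receptor family considered here were taken by name from a table of 23517 genes. They were 3 receptors (Egfr, Erbb2 and Erbb3), 6 ligands (Areg, Ereg, Btc, Tgfa, Hbegf and Epgn) and 1 receptor inhibitor (Errfi1). Of these, 9 were listed in the table, and Epgn was not analysed here. The cells were colonic organoid cells of 8 mice that carry EGFP, an internal ribosome entry site and CreERT2 in the Lgr5 gene, which marks stem and progenitor cells of the crypt base. Crypts of the proximal colon were embedded in Matrigel and kept overnight in L-WRN medium, which is conditioned by cells that secrete Wnt3a, R-spondin and Noggin. Organoids of each mouse then stayed without agonist (untreated) or received 250 nM bethanechol (Bch), a muscarinic acetylcholine receptor agonist, in fresh medium every day for 4 days, and EGFP-positive cells were sorted for RNA. The ages of the mice were not given beyond being matched. All mice carried the same reporter allele, and the labels name no gene deletion.

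The 16 combinations of mouse and treatment were each measured as 2 technical replicates, giving 32 libraries of unique molecular identifiers (UMIs), which count captured RNA molecules. The labels call mice 1 to 4 male and name sorted cells as their source. For mice 7 to 10 they give no sex and name colonic organoids as the source, and the study's description counts 4 female and 4 male mice. The kit for RNA extraction also differed, being the RNeasy Plus Micro kit for mice 1 to 4 and the RNeasy Mini kit for mice 7 to 10. Sex, kit and labelled source therefore cannot be told apart, and the sets are called male mice 1 to 4 and mice 7 to 10. The labels give 3000 sorted cells for most samples, with 2361 for untreated mouse 3, 2401 for untreated mouse 9, 3504 for Bch-treated mouse 1 and 13114 for untreated mouse 1.

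The summed technical replicates held 557512 UMIs (untreated mouse 3) to 4050342 UMIs (Bch-treated mouse 8). A count of 3 UMIs, the limit that a count of 0 allows, stood for 0.703 to 5.24 CPM (UMIs scaled to a common library total of 1e6), and this limit covers counting error only. The epithelial markers Epcam, Cdh1, Krt8, Krt18, Krt19 and Vil1 together reached 6830 to 8765 CPM in every sum. Of 6 fibroblast markers, Col1a1 had 3 UMIs and Lum 1 UMI over all libraries, and the other 4 were not analysed here. The summed levels were at most 8.97 CPM for the 4 listed immune markers and 2.41 CPM for the 2 listed endothelial markers. Lgr5 itself was present in every sum, with 20 to 131 UMIs. Xist was at 11.9 to 24.2 CPM in the male sums and at 43.8 to 161 CPM in mice 7 to 10, while the Y-linked gene Eif2s3y was at 36.5 to 62.8 CPM and 2.57 to 8.62 CPM, respectively. Both genes were thus counted in every sum of both sets. The cause, which may bear on the differences between the sets, was not tested.

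EGF family ligands are made as membrane proteins that metalloproteases such as ADAM17 and ADAM10 release from the cell surface. They bind EGFR, and some also bind ERBB4, after which the receptors pair with each other or with ERBB2, which has no known ligand of its own, or ERBB3, whose kinase is weak and which recruits PI3 kinase. The signal passes through Ras and ERK and through PI3 kinase and Akt, and it sustains the proliferation of intestinal stem cells. ERRFI1, also known as MIG6, binds the active receptor kinase and restrains it.

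The genes of 4 ligands lie next to each other on mouse chromosome 5 (GRCm38). Epgn spans chr5:91027464-91035215, Ereg chr5:91074622-91093646, Areg chr5:91139599-91148432 and Btc, on the other strand, chr5:91357261-91402994. The stretch from Epgn to Btc covers 376 kb and holds no other protein-coding gene, with 39.4 kb between Epgn and Ereg, 46.0 kb between Ereg and Areg and 209 kb between Areg and Btc. Among the other members, Tgfa is at chr6:86195223-86275719, Errfi1 at chr4:150853919-150868892, Erbb3 at chr10:128567523-128589652, Egfr at chr11:16752203-16918158 and Erbb2 at chr11:98412470-98437716.

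The results below turn on Areg and Btc, so the 200 bases before their starts are shown from RefSeq (GRCm38.p6), together with those of the downstream start of Errfi1, because it was the only other member promoter with the same pair of motifs as Areg. Sequences run 5′ to 3′ towards the gene, and capitals mark the letters of a cyclic AMP response element (TGACGTCA), a TATA box (TATAAA) and GC boxes (GGGCGG on either strand).
Areg promoter, chr5:91139399-91139598, plus strand: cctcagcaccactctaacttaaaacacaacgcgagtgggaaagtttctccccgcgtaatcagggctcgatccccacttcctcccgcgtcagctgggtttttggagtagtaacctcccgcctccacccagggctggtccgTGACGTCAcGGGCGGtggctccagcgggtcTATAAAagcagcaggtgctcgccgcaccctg
Errfi1 downstream promoter, chr4:150854870-150855069, plus strand: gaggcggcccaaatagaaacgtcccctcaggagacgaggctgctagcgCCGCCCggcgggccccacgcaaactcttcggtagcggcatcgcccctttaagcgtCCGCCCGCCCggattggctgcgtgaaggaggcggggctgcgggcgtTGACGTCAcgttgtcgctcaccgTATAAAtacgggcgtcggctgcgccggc
Btc promoter, chr5:91402995-91403194, minus strand: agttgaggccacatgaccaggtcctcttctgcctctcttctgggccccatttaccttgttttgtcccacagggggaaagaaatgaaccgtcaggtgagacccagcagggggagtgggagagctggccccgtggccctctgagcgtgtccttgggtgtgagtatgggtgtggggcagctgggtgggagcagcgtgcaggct
The Areg promoter held TGACGTCA beginning 61 bases before the start and TATAAA beginning 31 bases before it. In Errfi1 the same motifs began 51 and 28 bases before the start. The search covered 300 bases, from 250 before to 50 after each start, on both strands. In that window TGACGTCA was found in 1.79% and TATAAA in 13.6% of 32851 mouse promoters, and GGGCGG in 35.7%. Btc held none of the capitalized motifs, and also no TGANTCA (the AP-1 motif, found in 7.81% of promoters), but 1 TGACG, which is part of TGACGTCA and was found in 20.8%. RefSeq promoters were matched for 7 of the 10 members, and those of Ereg, Erbb3 and Hbegf were not used. A motif match describes the letters and was not tested as a binding site.

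The levels of the family were led by a ligand. Areg, which encodes amphiregulin, averaged 119 CPM over the 16 sums, followed by Errfi1 at 46.1 CPM, Hbegf at 31.4 CPM, Erbb2 at 19.5 CPM, Erbb3 at 16.2 CPM, Btc at 11.9 CPM, Egfr at 6.79 CPM, Tgfa at 5.24 CPM and Ereg at 4.52 CPM. Below Hbegf the order depended on the group, with Egfr (7.12 CPM) above Btc (6.61 CPM) in untreated mice 7 to 10, and Btc (16.9 CPM) above Erbb3 (16.7 CPM) and Ereg (5.85 CPM) above Tgfa (4.76 CPM) in Bch-treated male mice. In untreated male mice Erbb3 (15.8 CPM) was above Erbb2 (14.9 CPM), and Egfr (4.71 CPM) was lowest. The libraries were primed at the poly(A) tail, so 1 RNA gives 1 UMI whatever its length. CPM therefore needs no division by length, and CPM per kb of the longest transcript is given for comparison only, not as a measure of abundance. That scale kept Areg (98.0), Errfi1 (15.2), Hbegf (10.9) and Erbb2 (3.90) at the top, placed Btc (2.97) before Erbb3 (2.69), and put Egfr (0.665) last. In CPM, the lowest Areg value of any sum, 72.2, lay above every value of the receptors and of the other ligands, while the ranges of neighbours below Areg overlapped at each step. No 65-base stretch of the last 500 bases of any of the 9 members' transcripts occurred in another gene. Erbb2 overlaps the end of Mien1, an abundant gene on the opposite strand (5986 UMIs), and the use of strand in the counting is not given in the sources used here.

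The remaining family genes were scarcely detected. Egf had 2 UMIs and Nrg1 1 UMI over all 32 libraries, Nrg4 had 49, and Nrg2, Nrg3 and Erbb4 were not analysed here. Of the muscarinic receptors, Chrm1 had 28 UMIs and Chrm3, the receptor the study is about, 12 UMIs, and neither passed the filter on low counts in the 5 comparisons.

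**Figure D1:**
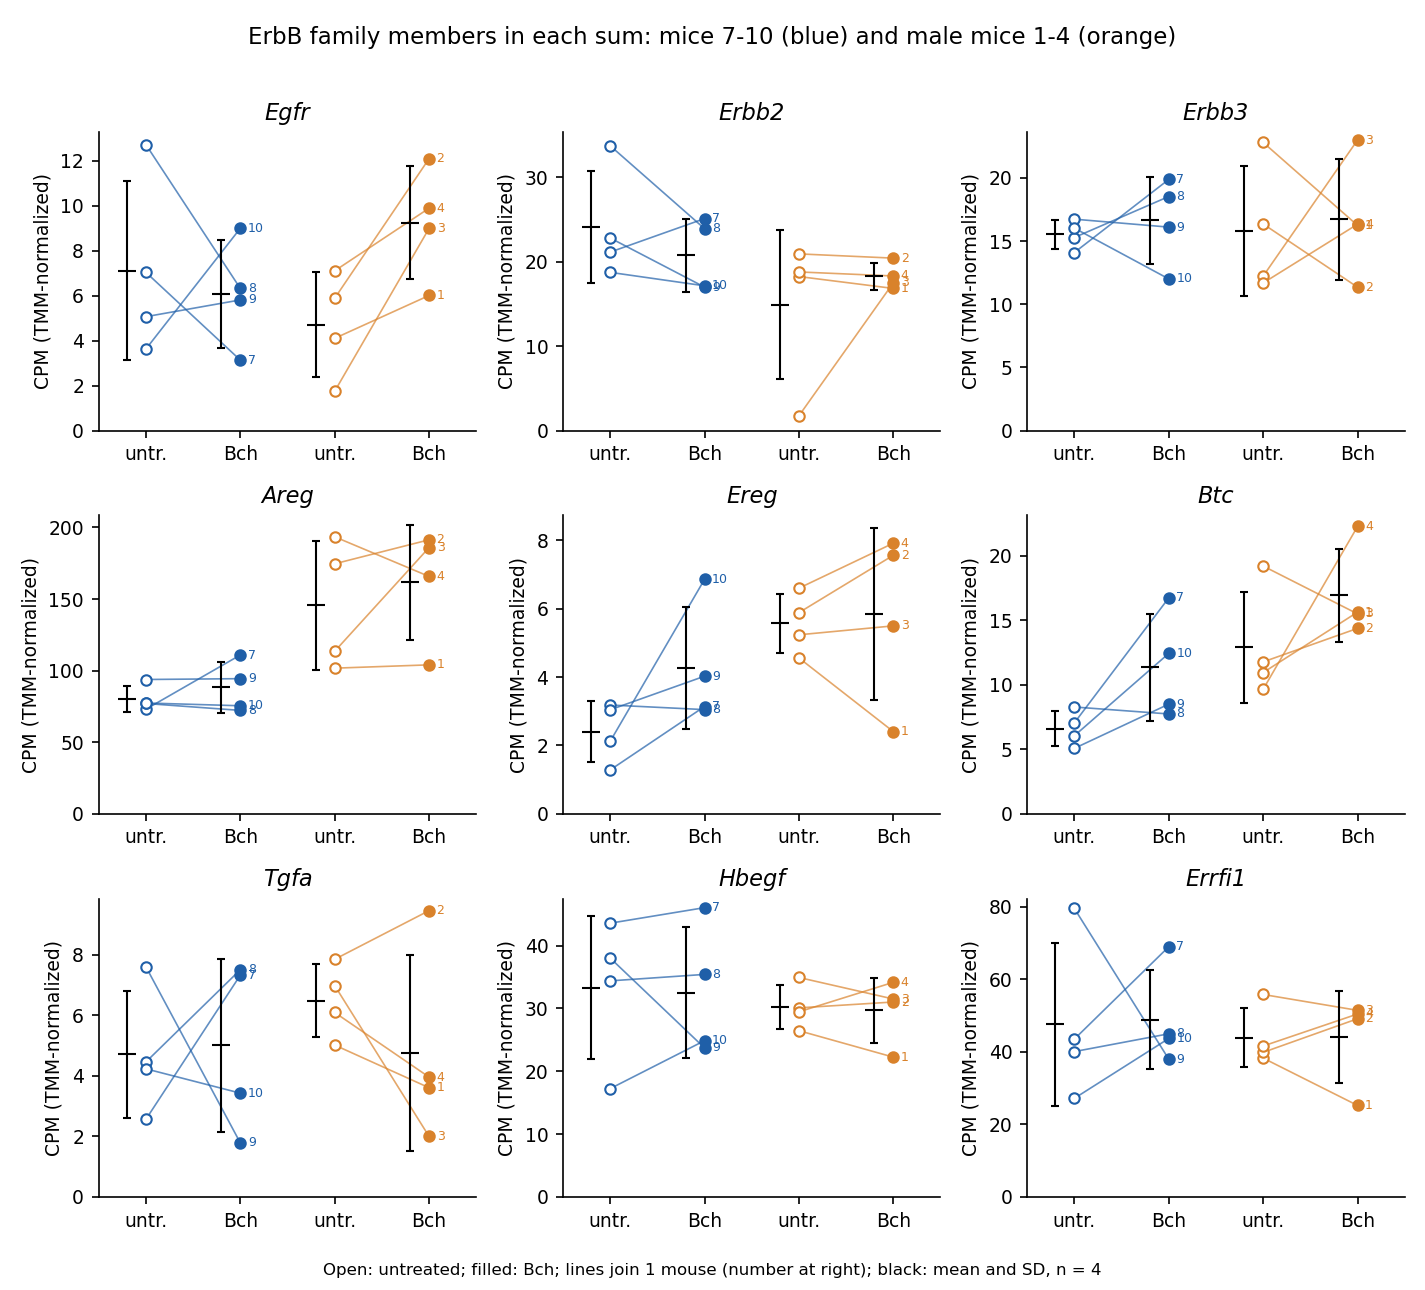
Level of each of the 9 listed members in CPM (vertical axes, starting at 0) in untreated (open) and Bch-treated (filled) sums of mice 7 to 10 (blue) and male mice 1 to 4 (orange). Lines join the sums of 1 mouse, and black marks give mean and SD of 4 sums. All untreated Areg points of mice 7 to 10 (at most 93.8 CPM) lie below those of male mice (at least 102 CPM), and Erbb2 of untreated mouse 3 stands alone at 1.75 CPM.

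The first question was whether Bch changed the family in either set. In mice 7 to 10, 0 of the 7 members that passed the filter on low counts (all but Ereg and Tgfa) had an adjusted p below 0.05 in edgeR's quasi-likelihood test with the mouse as a block, where 0 of 9515 genes tested (0%) did. At an unadjusted p below 0.05 the counts were 0 of 7 members and 360 of 9515 genes (3.78%), and DESeq2 also called 0 genes, with 123 at that unadjusted level. In male mice, 0 of 9 members passed, against 2 of 9509 genes (0.0210%). The 1 member with an unadjusted p below 0.05 was Egfr, against 734 genes (7.72%) in either direction and 424 (4.46%) that were higher, and DESeq2 called 14 genes. DESeq2 gave no adjusted p for any member in male mice, and their unadjusted p there were 0.102 (Egfr) or higher. Over all 8 mice, 0 of 9 members and 0 of 10280 genes (0%) passed, and 1 member (Btc) and 555 genes (5.40%, with 3.13% higher) had an unadjusted p below 0.05. DESeq2 called 0 genes there, with 366 at that unadjusted level. The values of Bch-treated and untreated sums overlapped for every member in both sets, where 2.15% of the genes tested in mice 7 to 10 and 2.85% of those tested in male mice did not overlap. The median log2 fold change of the members tested was 0.05 in mice 7 to 10, 0.03 in male mice and 0.04 over 8 mice, and the medians of all genes tested were -0.0022, 0.0012 and 0.0063. The median size of the change, regardless of sign, was 0.0883 for members and 0.146 for all genes in mice 7 to 10, and 0.118 and 0.160 in male mice. In these bulk libraries, fewer cells expressing a gene and less RNA per cell cannot be told apart.

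No receptor passed the threshold in either set, and Egfr in male mice had the lowest unadjusted p of the receptors. Egfr, the receptor of the 6 ligands, was at 7.05, 12.7, 5.07 and 3.63 CPM in untreated mice 7, 8, 9 and 10 and at 3.14, 6.33, 5.81 and 9.00 CPM with Bch. It was at 4.10, 5.89, 1.75 and 7.11 CPM in untreated male mice 1, 2, 3 and 4 and at 6.01, 12.1, 9.00 and 9.90 CPM with Bch. Every male mouse was higher with Bch, which 8.22% of the genes tested also were, yet the groups overlapped, since 7.11 CPM in untreated mouse 4 exceeded 6.01 CPM in Bch-treated mouse 1. The log2 fold change was 0.85 (SE 0.40, 95% interval 0.04 to 1.66) in male mice with an unadjusted p of 0.0394 and an adjusted p of 0.605 in edgeR, and it was -0.09 (SE 0.43, interval -0.94 to 0.77) in mice 7 to 10, where 2 of 4 mice were higher. These levels rest on 1 to 32 UMIs per sum. The lowest, 1 UMI in untreated mouse 3, allows 0.0454 to 9.99 CPM of total UMIs (exact binomial 95% interval, counting error only), and without mouse 3 the male log2 fold change was 0.69 with an unadjusted p of 0.110 in edgeR. It was 0.78 without mouse 2, with an unadjusted p of 0.130 in edgeR.

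Erbb2, the shared partner of the other receptors, was at 21.1, 33.7, 22.8 and 18.7 CPM in untreated mice 7, 8, 9 and 10 and at 25.1, 23.9, 17.0 and 17.1 CPM with Bch. In male mice 1, 2, 3 and 4 it was at 18.2, 20.9, 1.75 and 18.8 CPM untreated and at 16.8, 20.4, 17.5 and 18.3 CPM with Bch. The 7 male sums other than untreated mouse 3 thus lay between 16.8 and 20.9 CPM. Untreated mouse 3 had 1 UMI of 557512, which allows up to 9.99 CPM, and its Bch-treated sum had 35 UMIs of 1991111, which allows 12.2 to 24.4 CPM. The log2 fold change was 0.20 (SE 0.29) in male mice, with an adjusted p of 0.939 in edgeR, and -0.06 (SE 0.28) without mouse 3. In mice 7 to 10 it was -0.23 (SE 0.24, interval -0.71 to 0.25).

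Erbb3 was the steadiest receptor between groups, with means of 15.5 ± 1.13 and 16.6 ± 3.45 CPM (SD, n = 4) in untreated and Bch-treated mice 7 to 10 and 15.8 ± 5.14 and 16.7 ± 4.78 CPM in male mice. Bch-treated sums were higher in 2 of 4 mice of each set. The log2 fold change was 0.05 (interval -0.50 to 0.60) and 0.00399 (interval -0.58 to 0.59), so that increases of up to 1.52-fold and 1.51-fold lie within the intervals.

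Among the ligands, Btc (betacellulin), which binds EGFR and ERBB4, had the lowest unadjusted p over the 8 mice. In untreated mice 7, 8, 9 and 10 it was at 7.05, 8.28, 5.07 and 6.05 CPM and with Bch at 16.7, 7.74, 8.50 and 12.4 CPM. In untreated male mice 1, 2, 3 and 4 it was at 10.9, 11.8, 19.2 and 9.65 CPM and with Bch at 15.6, 14.4, 15.5 and 22.3 CPM. The Bch-treated sum was higher in 6 of 8 mice, the exceptions being mice 8 and 3, and treated and untreated sums overlapped in both sets. Of the 9 listed members, Btc, Egfr and Ereg were higher in at least 6 of 8 mice, as were 16.2% of the genes tested. The log2 fold change of Btc was 0.59 (SE 0.22, interval 0.14 to 1.05), or 1.51-fold, with an unadjusted p of 0.0118 and an adjusted p of 0.897 in edgeR. It was 0.72 (SE 0.36) in mice 7 to 10 and 0.48 (SE 0.30) in male mice, with adjusted p of 0.999 and 0.764 in edgeR. When all sums were thinned to the depth of the shallowest, the change over 8 mice was 0.26 with an unadjusted p of 0.410 in edgeR, and without mouse 4 it was 0.48 with an unadjusted p of 0.0600. With any other mouse left out it was 0.51 to 0.70, with unadjusted p of 0.00471 to 0.0411 in edgeR. In mice 7 to 10 the unadjusted p was 0.0504, and without mouse 8 the change was 1.01 with an unadjusted p of 0.0214 (adjusted p = 1.00 in edgeR). In male mice it was 0.68 without mouse 3 (unadjusted p = 0.0367, adjusted p = 0.843 in edgeR) and 0.20 without mouse 4 (unadjusted p = 0.552).

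Areg, the most abundant ligand, was at 73.0, 77.0, 93.8 and 77.4 CPM in untreated mice 7, 8, 9 and 10 and at 111, 72.2, 94.4 and 75.4 CPM with Bch. In male mice 1, 2, 3 and 4 it was at 102, 175, 113 and 193 CPM untreated and at 104, 191, 186 and 166 CPM with Bch. Mouse 7 and mouse 3 had ratios of Bch to untreated of 1.51 and 1.63, and the other 6 mice stayed between 0.858 and 1.10. Its log2 fold change was the most narrowly bounded of the family, at 0.11 (interval -0.21 to 0.42) in mice 7 to 10 and 0.12 (interval -0.12 to 0.35) in male mice. The upper bounds correspond to increases of 1.34-fold and 1.28-fold.

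Ereg (epiregulin) was counted at 2 to 20 UMIs per sum. It was at 1.28, 3.18, 3.04 and 2.12 CPM in untreated mice 7, 8, 9 and 10, and 3.14, 3.05, 4.03 and 6.86 CPM with Bch. In male mice 1, 2, 3 and 4 it was at 4.56, 5.89, 5.24 and 6.60 CPM untreated and at 2.41, 7.56, 5.50 and 7.92 CPM with Bch. Bch-treated sums were higher in 6 of 8 mice, and the log2 fold change over 8 mice was 0.38 (SE 0.34, interval -0.32 to 1.07). The untreated values of mice 7 to 10 rested on 2 to 7 UMIs per sum. The interval over 8 mice spans 0, and no detection limit was computed at this level.

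The other ligands and the inhibitor showed no common direction. Tgfa (transforming growth factor alpha) ranged from 1.79 to 9.46 CPM, was higher with Bch in 3 of 8 mice and had a log2 fold change of -0.25 (interval -0.94 to 0.45) over 8 mice. Hbegf (heparin-binding EGF-like growth factor) had means of 33.3 ± 11.4 and 32.5 ± 10.4 CPM (SD, n = 4) in untreated and Bch-treated mice 7 to 10, and 30.2 ± 3.50 and 29.7 ± 5.17 CPM in male mice. Its log2 fold change over 8 mice was -0.01 (interval -0.31 to 0.28). Errfi1 had means of 47.6 ± 22.5 and 49.0 ± 13.7 CPM (SD, n = 4) in mice 7 to 10 and 43.9 ± 8.07 and 44.1 ± 12.6 CPM in male mice. Its spread in mice 7 to 10 came with opposite changes, from 79.6 to 38.0 CPM in mouse 9 and from 27.2 to 43.7 CPM in mouse 10, and the log2 fold change over 8 mice was 0.04 (interval -0.27 to 0.35). In mice 7 to 10 it was 0.09, and 0.50 without mouse 9 (unadjusted p = 0.0269, adjusted p = 1 in edgeR). The signs of the Hbegf and Errfi1 changes turned under several processing alternatives.

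**Figure D2:**
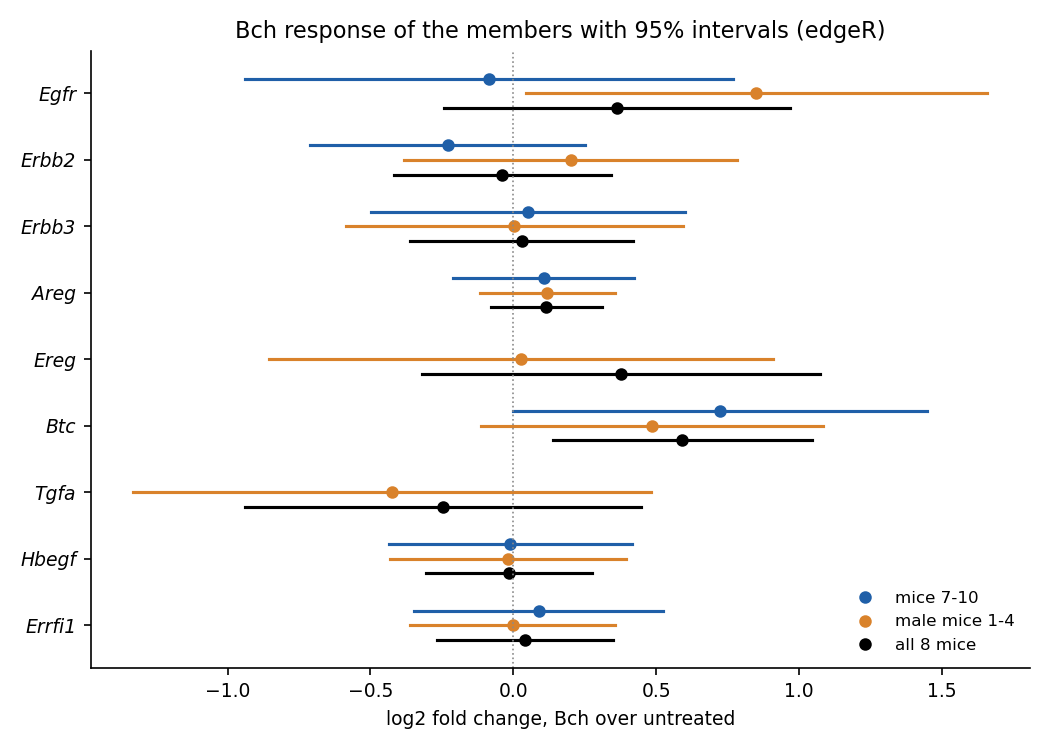
Log2 fold change of each member between Bch-treated and untreated sums (horizontal axis), with 95% intervals from edgeR, in mice 7 to 10 (blue), male mice 1 to 4 (orange) and all 8 mice (black). Ereg and Tgfa were not tested in mice 7 to 10, and the intervals that leave out 0 are those of Egfr in male mice (0.04 to 1.66) and Btc over 8 mice (0.14 to 1.05), neither of which passed the adjusted threshold.

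The second question was whether the response to Bch differed between the sets. In a fit over all 16 sums, 0 of 9 members and 0 of 10280 genes (0%) had a difference that passed, with 0 members and 451 genes (4.39%) at an unadjusted p below 0.05. DESeq2 called 0 genes as well, with 238 at that unadjusted level. For Egfr the response of mice 7 to 10 minus that of male mice was -0.94 on the log2 scale (SE 0.60, interval -2.15 to 0.26, unadjusted p = 0.122, adjusted p = 1 in edgeR), and without mouse 10 it was -1.48 (unadjusted p = 0.0220, adjusted p = 0.633 in edgeR). It was -0.44 (interval -1.20 to 0.33) for Erbb2, 0.25 (interval -0.67 to 1.16) for Btc and -0.03 (interval -0.43 to 0.37) for Areg. Standard errors of the differences were 0.197 (Areg) to 0.699 (Tgfa). The intervals reached beyond 1 on the log2 scale in at least 1 direction for Egfr, Erbb2, Btc, Ereg and Tgfa.

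The genes that act around the receptors were examined in the same fits, as 6 lists of 86 genes. In edgeR, 0 of 65 tested genes passed the threshold in mice 7 to 10, 0 of 67 in male mice, 0 of 72 over the 8 mice and 0 of 72 for the difference, with 3, 2, 4 and 5 at an unadjusted p below 0.05, where 3.78%, 7.72%, 5.40% and 4.39% of all genes tested were. Of 9 genes for ligand shedding, 6 were tested in mice 7 to 10 and 5 in male mice, with median log2 fold changes of 0.18 and -0.14. Adam10 had 0.23 in mice 7 to 10 and -0.15 in male mice, Rhbdf1, a cofactor of ADAM17, had 0.38 and -0.0011, and Adam9 had 0.12 and -0.54. Of 20 genes for adaptors, Ras and ERK, 15 and 16 were tested, with medians of 0.00884 and 0.03. Rasa1, which encodes a Ras GTPase-activating protein, had 0.68 and 0.66 in the sets and 0.67 (SE 0.21) over 8 mice, with an unadjusted p of 0.00286 and an adjusted p of 0.799 in edgeR. Nf1, another negative regulator of Ras, had 0.94 in mice 7 to 10 and -0.51 in male mice, a difference of 1.45 (unadjusted p = 0.0242, adjusted p = 1 in edgeR). Mapk3 (ERK1) had 0.17 and -0.15. Of 15 genes of PI3 kinase, Akt, PLCγ and STAT signalling, 10 and 11 were tested, with medians of 0.07 and 0.02. Pik3r2 had 0.46 in mice 7 to 10 and 0.02 in male mice, Src had -0.46 and 0.08, and Stat3 had 0.08 and -0.47, while Stat5b, tested in male mice only, had 0.77.

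Of 14 genes for receptor trafficking and ubiquitination, 12 and 13 were tested, with medians of 0.06 and -0.16. In male mice 10 of the 13 were negative, as were 49.7% of all genes tested, and 4 of the 12 were negative in mice 7 to 10, against 50.5%. Cbl, the ubiquitin ligase of EGFR, was at -0.78 in male mice and 0.42 in mice 7 to 10, while Cd2ap was at 0.28 and 0.34 in the sets and at 0.31 over 8 mice (unadjusted p = 0.0222, adjusted p = 0.903 in edgeR). Stam2, which sorts ubiquitinated receptors, had 0.41 in mice 7 to 10 and -0.10 in male mice. Of 15 feedback inhibitors, 10 were tested in each set, with medians of 0.05 and -0.06. Dusp6, an ERK phosphatase induced by ERK itself, had 0.60 and 0.57 in the sets and 0.58 (SE 0.24) over 8 mice, with an unadjusted p of 0.0183 and an adjusted p of 0.902 in edgeR. Dusp1 had 0.50 in mice 7 to 10 and -0.39 in male mice. Of 13 ERK target genes, 12 were tested in each set, with medians of 0.19 and 0.03. Fosl1, a Fos family gene, had 1.02 in mice 7 to 10, 0.32 in male mice and 0.65 over 8 mice (unadjusted p = 0.0163, adjusted p = 0.902 in edgeR), and Ier3 had 0.38 and 0.03 in the sets. Fos had 0.30 in mice 7 to 10 and -0.31 in male mice, a difference of 0.61 (unadjusted p = 0.0296, adjusted p = 1 in edgeR), and Plaur had 0.17 and -0.29. Fos, Dusp1 and Egr1 are also on a list of 10 genes that respond to tissue dissociation. None of its tested genes passed in either set, with 5 of 9 positive in mice 7 to 10 and 0 of 7 in male mice, where Junb had -0.23 (unadjusted p = 0.0268, adjusted p = 0.576 in edgeR). Ier2, on the same list, had -0.31 in mice 7 to 10, -0.18 in male mice and -0.25 over 8 mice (unadjusted p = 0.00397, adjusted p = 0.832 in edgeR). The part of a response to dissociation in the values of Fos and Dusp1 was not tested. Against medians of all genes near 0, no list is called from these values.

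Markers of cell types were read in the same fits of the Bch response, and none passed the threshold. Lgr5, the sorting marker, had 0.49 in mice 7 to 10 (unadjusted p = 0.0448, adjusted p = 0.999 in edgeR) and -0.66 in male mice (unadjusted p = 0.00581, adjusted p = 0.358). The difference was 1.15 (unadjusted p = 0.000985, adjusted p = 1 in edgeR). Ascl2, another stem cell marker, went the other way, with -0.32 in mice 7 to 10 (unadjusted p = 0.0215, adjusted p = 0.999 in edgeR) and 0.12 in male mice. Its difference was -0.44 (unadjusted p = 0.00939 in edgeR). Of the 7 stem cell markers, 4 were positive in mice 7 to 10 and 3 in male mice. At an unadjusted p below 0.05 were 2 of 7 stem cell, 0 of 5 colonocyte, 2 of 7 goblet and 2 of 5 enteroendocrine markers in mice 7 to 10, and 1 of 7, 2 of 4, 1 of 6 and 0 of 4 in male mice, against 3.78% and 7.72% of all genes tested. The lowest p were those of Gcg (-0.81, adjusted p = 0.177 in edgeR), an enteroendocrine hormone gene, and Fcgbp (0.77, adjusted p = 0.539), a goblet cell gene, in mice 7 to 10, and of Spink4 (-0.38, adjusted p = 0.116), a goblet cell gene, in male mice. Chgb, also enteroendocrine, was opposite to Gcg in mice 7 to 10, at 0.43 (unadjusted p = 0.0136, adjusted p = 0.999 in edgeR). Positive were 2 of 5 enteroendocrine and 6 of 7 goblet cell markers in mice 7 to 10, and 3 of 4 and 3 of 6 in male mice. Summed stem cell markers were at 516 to 590 CPM untreated and 409 to 568 CPM with Bch in mice 7 to 10, and at 651 to 778 CPM and 672 to 755 CPM in male mice, so that the treatments overlapped in both sets. Of 6 proliferation genes, 3 were positive in mice 7 to 10 and 0 in male mice, where Mcm2 had -0.39 (unadjusted p = 0.0303, adjusted p = 0.587 in edgeR) and the other 5 lay between -0.07 and -0.02. The part of these genes in the values of Egfr and Btc was not tested.

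**Figure D3:**
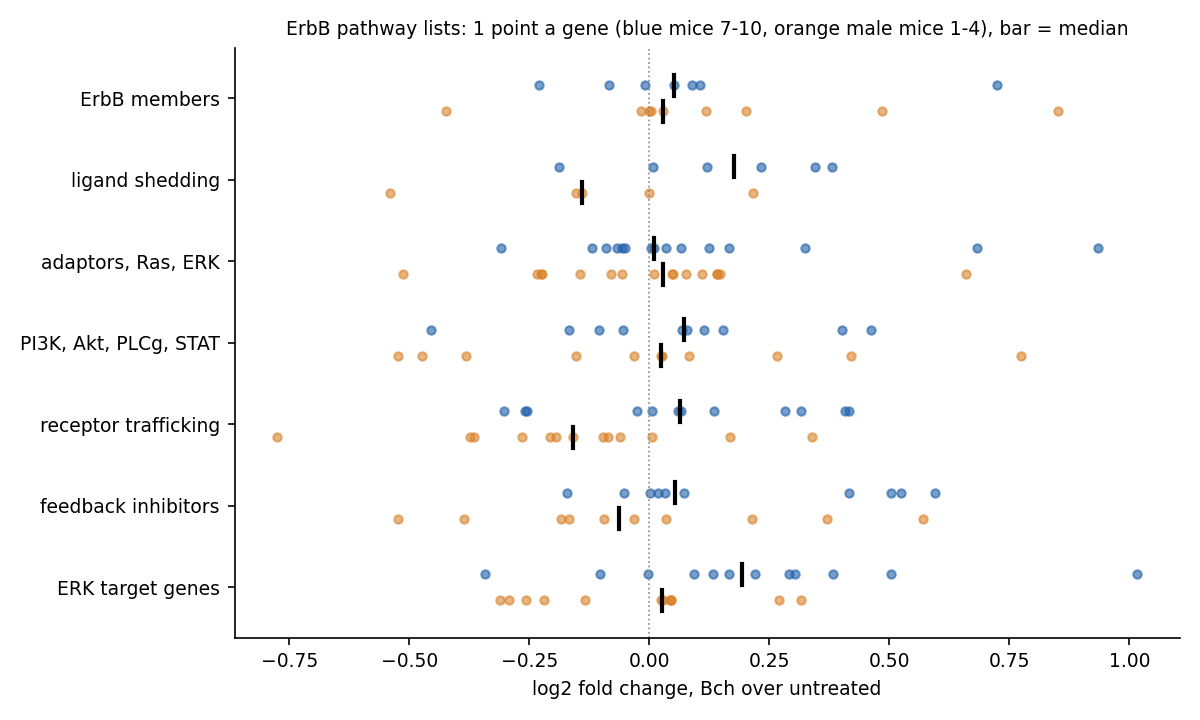
Log2 fold change between Bch-treated and untreated sums (horizontal axis) of every tested gene of the family and of 6 pathway lists (rows), with blue points for mice 7 to 10, orange points for male mice 1 to 4 and black bars for medians. Points lie on both sides of 0 in each row, and the medians range from -0.16 (receptor trafficking, male mice) to 0.19 (ERK target genes, mice 7 to 10).

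The third comparison set the untreated sums of mice 7 to 10 against those of male mice, which shows where the family differed before any agonist. Areg was lower in mice 7 to 10, at 80.3 ± 9.21 CPM against 146 ± 45.1 CPM (SD, n = 4). Its log2 fold change was -0.89 (SE 0.17, interval -1.24 to -0.54), so that male mice were 1.85-fold higher, with an adjusted p of 0.00412 in edgeR. It was the 1 of 8 tested members that passed, where 150 of 9159 genes (1.64%) did and 61 genes (0.666%) did so in this direction. At an unadjusted p below 0.05 were 2 of 8 members (Areg and Btc, both lower) and 1164 genes (12.7%, with 6.05% lower). Areg passed in every alternative and with each mouse left out, with adjusted p of 6.57e-06 to 0.0385 in edgeR or DESeq2. Between the Bch-treated sums of the sets it also passed, at -0.91 (SE 0.17, adjusted p = 0.00322 in edgeR). There the groups overlapped, since Bch-treated mouse 7 (111 CPM) was above Bch-treated mouse 1 (104 CPM).

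The neighbours of Areg on chromosome 5 pointed the same way without passing. Untreated Btc was at 5.07 to 8.28 CPM in mice 7 to 10 and at 9.65 to 19.2 CPM in male mice, with a log2 fold change of -0.89 (SE 0.36, interval -1.62 to -0.16), an unadjusted p of 0.0181 and an adjusted p of 0.249 in edgeR. Without mouse 3 it was -0.73 with an unadjusted p of 0.0546 in edgeR. Untreated Ereg was at 1.28 to 3.18 CPM and at 4.56 to 6.60 CPM, on 2 to 7 and 3 to 13 UMIs. It did not pass the filter on low counts, and without that filter its log2 fold change was -1.20 (SE 0.57) with an adjusted p of 0.523 in edgeR. Thus the untreated sums of the sets did not overlap for Areg and Btc among the 8 tested members, and also not for Ereg, against 8.01% of the genes tested. With Bch, the sets overlapped for all of Areg, Btc and Ereg, where 7.72% of the genes tested did not overlap, and 1.77% of genes tested kept the sets apart in both treatments.

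Neither the receptors nor the remaining members passed the threshold between the sets. Untreated Tgfa was at 4.71 ± 2.10 CPM in mice 7 to 10 and 6.49 ± 1.21 CPM in male mice (SD, n = 4), with a log2 fold change of -0.42 (interval -1.32 to 0.47). For Egfr it was 0.37 (interval -0.58 to 1.32), and -0.55 between the Bch-treated sums. For Erbb2 it was 0.49 (interval -0.13 to 1.12), and 0.29 without mouse 3. Erbb3 was at -0.08, Hbegf at 0.12 and Errfi1 at 0.13, each with an interval that spans 0. The median size of the difference was 0.396 on the log2 scale for the 8 members and 0.204 for all genes tested. Of 62 tested genes of the 6 pathway lists, 1 passed and 4 had an unadjusted p below 0.05 in edgeR, against 1.64% and 12.7% of all genes tested. The 1 that passed was Ccnd1 (cyclin D1), among 12 ERK target genes, which was lower in mice 7 to 10, at -0.61 (SE 0.13, adjusted p = 0.00885 in edgeR). Of the 12, 11 were negative, as were 52.1% of all genes tested. Myc was at -0.39 with an adjusted p of 0.230. No gene of the other 5 lists passed.

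Markers of cell types moved with this comparison, where the shares of all genes tested were 1.64% past the threshold and 12.7% with an unadjusted p below 0.05. Of 7 stem cell markers, Ascl2 (-0.51, adjusted p = 0.0319 in edgeR) and Axin2 (-0.84, adjusted p = 0.0472), a Wnt target, were lower in untreated mice 7 to 10, and 4 of 7 had an unadjusted p below 0.05, including Lgr5, the sorting marker, at -0.87 (adjusted p = 0.0592) and Rnf43 at -0.81 (adjusted p = 0.170). Smoc2 was at 0.13, the 1 of the 7 above 0, and the summed level of the 7 was 516 to 590 CPM there and 651 to 778 CPM in male mice. Of 5 colonocyte markers tested, 1 (Aqp8, 1.81, adjusted p = 0.0321 in edgeR) was higher in mice 7 to 10. All 5 had positive log2 fold changes, against 47.9% of all genes tested, and 4 had an unadjusted p below 0.05, with Slc26a3 at 1.40, Krt20 at 0.96 and Guca2a at 0.73. The 7 listed summed to 805 to 1682 CPM in mice 7 to 10, against 787 to 1218 CPM. Goblet cell markers summed to 3451 to 8984 CPM and 4353 to 6692 CPM, and enteroendocrine markers to 338 to 874 CPM and 179 to 361 CPM, and 0 of 7 and 0 of 5 tested markers passed in edgeR, with 4 and 3 at an unadjusted p below 0.05. Positive were 6 of the 7 goblet cell markers (all but Fcgbp, at -0.65) and 5 of the 5 enteroendocrine markers, against 47.9% of all genes tested. Tuft cell markers summed to 9.67 to 16.6 CPM and 7.75 to 20.9 CPM. The part of these markers in the difference of Areg was not tested, and sex, kit and source cannot be told apart from it.

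**Figure D4:**
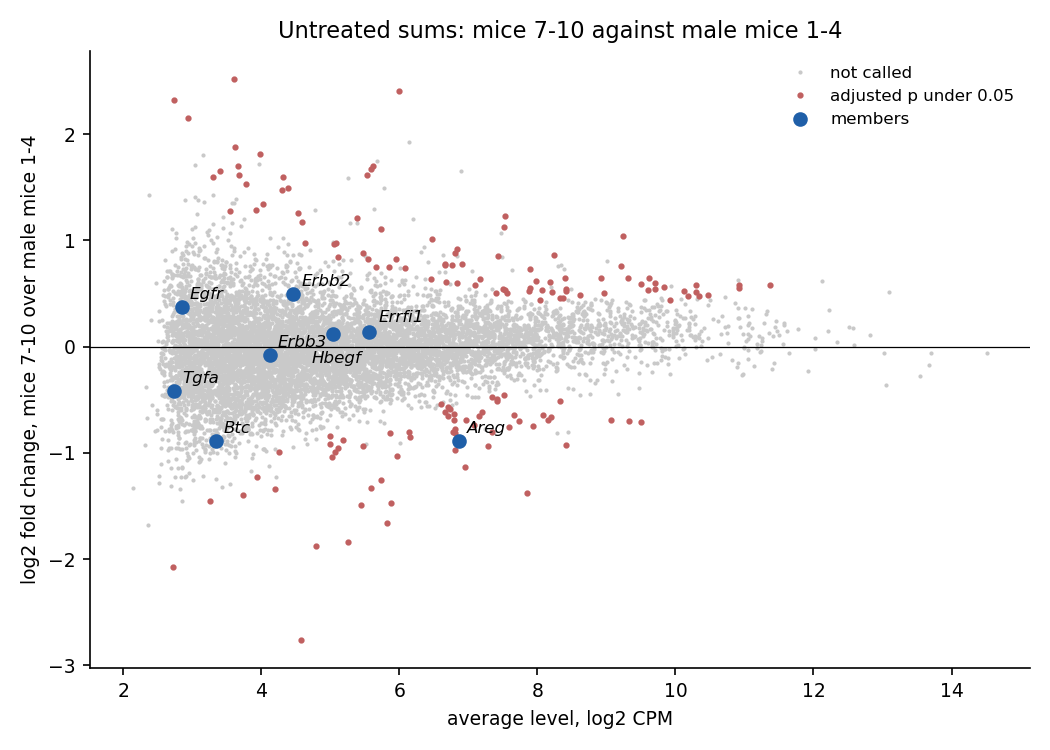
Log2 fold change between untreated mice 7 to 10 and untreated male mice 1 to 4 (vertical axis) against average level in log2 CPM (horizontal axis) for all genes tested (grey), genes with an adjusted p below 0.05 (red) and the 8 tested members (blue). Areg, at -0.89, lies among the called genes, and Btc, also at -0.89 but with a lower level, does not.

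The members' variation among sums was also compared with one another, as a description, with the mean of each set removed from the log2 CPM. Over 16 sums the highest Pearson r of 36 pairs was that of Hbegf and Errfi1 (0.782), with 0.754 in the 8 sums of mice 7 to 10 and 0.961 in the 8 male sums. Egfr and Erbb2 had 0.663, with 0.317 in mice 7 to 10 and 0.807 in male mice, and both were at 1 UMI in the shallowest sum. Areg and Ereg had 0.485 over 16 sums, with 0.154 in mice 7 to 10 and 0.753 in male mice. Areg and Btc had 0.0775, with 0.395 and -0.14 within the sets, and Ereg and Btc had 0.321, with 0.486 and 0.0711. The lowest value was -0.29, for Erbb3 and Ereg, with -0.29 and -0.32 within the sets. The points share libraries, depths and mice, 2 sums coming from each mouse, and the counts of Ereg and Egfr are low.

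**Figure D5:**
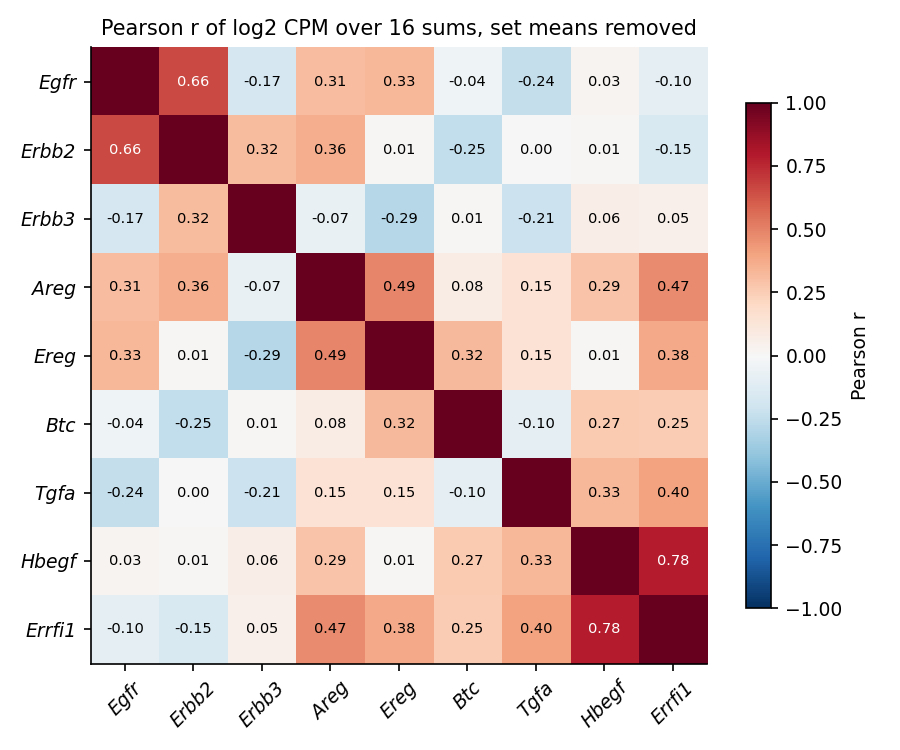
Pearson r of log2 CPM between members (rows and columns) over 16 sums after the mean of each set was removed, from blue (-1) to red (1). The darkest cells off the diagonal are Hbegf with Errfi1 (0.782) and Egfr with Erbb2 (0.663).

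Among 5116 genes with a mean of at least 20 CPM, those most like each member in the same measure were Tbl2 and Hax1 (both r = 0.909) for Erbb2, Gm37376 (0.885) and Gm16238 (0.859) for Egfr and Slc30a7 (0.811) and Tbp (0.699) for Erbb3. For Areg they were Sqstm1 (0.852) and Pdcd2 (0.843), for Ereg Usp16 (0.818) and Muc2 (0.758), for Btc Acbd3 (0.818) and Pnp2 (0.806), for Tgfa Nadk (0.758) and Gtf2h2 (0.726), for Hbegf Pls3 and Myh9 (0.820 for the latter), and for Errfi1 Irf2bp2 (0.878) and Malat1 (0.830). These are the highest of many values over 16 sums of 8 mice and are given as a description. Erbb2 and Egfr were each at 1 UMI in untreated mouse 3, so their values can rest largely on that sum.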

How the data were processed

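The authors deposited a table of raw UMI counts per gene for 32 libraries, made from oligo-dT primed cDNA with the Drop-seq pipeline, an alignment to GRCm38 and GENCODE M25, as the study's methods state. The labels name another build, GRCh38. Blank cells, which 1520 genes have in technical replicate 2, were read as 0. Technical replicates differed no more than counting noise allows. The mean chi-square per gene was 0.842 to 0.998 over sums, below the 1 that independent counts give. They were summed and counted as 1 sample, which gave 16 sums of 557512 to 4050342 UMIs. Whether both replicates counted the same molecules was not tested. If they did, the summed UMIs and the intervals for counting error overstate the precision. Nothing beyond the mouse number says how cultures were kept apart.

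Counts passed filterByExpr, were normalized by TMM and tested with edgeR 4.0.16 in R 4.3.3 (quasi-likelihood, robust, mouse as a block), with Benjamini-Hochberg adjustment over all genes tested and a threshold of 0.05. Sets were fitted separately for Bch, together for the difference and for all 8 mice, and without a block between sets. Standard errors are the log2 fold change over the square root of F. CPM are TMM-normalized. Motifs were searched in Python 3.11.15, and gene positions are from GENCODE M21 on GRCm38.

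The pairing comes from the labels, where sums with 1 number are cells of 1 mouse. Deviations from group means correlated across genes at 0.0710, 0.151, 0.00310 and -0.0203 in mice 7, 8, 9 and 10 and at 0.244, 0.0331, 0.0615 and 0.0837 in mice 1, 2, 3 and 4.

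The members and lists were chosen with earlier results of these data known. Named were all members, up to 2 genes per pathway list and fit with the smallest p, and the 2 genes most like each member. Named beyond that rule, after their values were seen, were the cell type marker genes given with values and genes given with UMI totals. Lists for dissociation, proliferation and sex-linked genes were also counted, the first 2 with values for genes chosen in the same way. Between untreated sets, edgeR called 0 of 8 and 0 of 6 tested genes of the first 2 lists (0 and 1 at an unadjusted p below 0.05) and, of 2 sex-linked genes tested, Xist (higher in mice 7 to 10) and Eif2s3y (lower).

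Simulated counts held 200 changed genes, drawn at any level. Of those given a log2 fold change of 1, 66.3% were found again for mice 7 to 10 (9278 genes tested) and 68.1% for male mice (9226). The share was 86.7% for 8 mice (10086), 37.2% for the difference (10075) and 69.9% between untreated sets (6811). For the untreated sets the simulated means lay below the real ones, where 9159 genes were tested, so that share does not describe the real depth. In the same order, 11 of 166, 7 of 163, 11 of 194, 5 of 114 and 8 of 143 calls were unchanged genes. No share was computed at the levels of the members. Alternatives were the fit with no block, DESeq2 1.42.0, its size factors, no filter, each technical replicate, thinning to 557512 UMIs, removal of 407 mitochondrial and ribosomal protein genes, and each mouse left out. A comparison of Bch-treated sums was added after seeing the data.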

Additional observations from a re-analysis of the deposited data

Results flagged for a closer look

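Of 36 groups of 4 sums (9 members in 4 groups), 3 held a sum whose gap to the nearest of the others was larger, relative to the range of the group, than Dixon's 95% limit. Chance flags about 1 in 20 groups. Erbb2 was at 1.75 CPM in untreated male mouse 3, where the other untreated male sums were at 18.2 to 20.9 CPM, and the gap was 0.860 of the range. Btc was at 22.3 CPM in Bch-treated male mouse 4, above 14.4 to 15.6 CPM in the others, with a gap of 0.840 of the range. Errfi1 was at 25.3 CPM in Bch-treated male mouse 1, below 49.2 to 51.5 CPM in the others, with a gap of 0.912 of the range.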

How the results depend on the processing

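Among members with an adjusted p, the number called was 1 (Areg) between the untreated sets and 0 in the other 4 comparisons, under the alternatives run and with each mouse left out. DESeq2 gave no member an adjusted p in male mice, as few as 4 members were tested after thinning, and the comparison between untreated sets has no block to remove. Counts over all genes moved more. In male mice the 2 calls became 14 with DESeq2, 88 with no filter on low counts, 9 with technical replicate 1 only, 4 after thinning to the shallowest sum and 0 to 19 with a mouse left out (0 without mouse 1 or 2, 5 without mouse 3 and 19 without mouse 4). Without the replicate block, that is with the pairing of mice ignored, the male calls were 0, and no call of a member changed. In mice 7 to 10 the 0 calls became 0 to 4 with a mouse left out (1 without mouse 10, 3 without mouse 8 and 4 without mouse 9). Over 8 mice they became 15 with no filter, 1 with technical replicate 1 only, 1 after thinning and 0 to 1 with a mouse left out, and for the difference 1 with no filter. Between untreated sets the 150 calls became 234 with no filter and 74 to 210 with a mouse left out (74, 97, 80, 93, 97 and 92 without mouse 2, 3, 4, 7, 8 and 9).

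None of the members' log2 fold changes that turned sign was called in any setting that gave an adjusted p. In mice 7 to 10, Hbegf was 0.0160 with technical replicate 1 and Errfi1 -0.0643 with technical replicate 2. In male mice, Erbb3 was -0.0012 with DESeq2's size factors and -0.0748 with technical replicate 2, Areg -0.0266 after thinning and Ereg -0.0159 with DESeq2. Hbegf was 0.0164 without the block, 0.0057 with no filter and 0.0590 with technical replicate 2. Errfi1 was 0.0688 without the block, 0.0223 with no filter, 0.0448 and 0.0016 with technical replicates 1 and 2, 0.0108 after thinning and 0.0049 without mitochondrial and ribosomal protein genes. For the difference, Erbb3 was -0.0195 with technical replicate 1 and -0.15 after thinning, Areg 0.0375 with technical replicate 2 and 0.19 after thinning, and Btc -0.25 with technical replicate 2, from 0.25. Hbegf was -0.0537 without the block, -0.0026 with no filter, -0.0622 with technical replicate 2 and -0.0015 after thinning, and Errfi1 -0.0538, -0.0570 and -0.0065 without the block, with technical replicate 2 and after thinning. Over 8 mice, Erbb3 was -0.0152 after thinning, and Hbegf 0.0156 and Errfi1 -0.0453 with technical replicate 2. Between sets, Hbegf was -0.0509 after thinning, and Egfr -0.55 with Bch-treated sums, from 0.37, a comparison chosen after seeing the data. The cause was not tested.

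With a mouse left out, the ranges that crossed 0 were, in mice 7 to 10, -0.62 to 0.34 for Egfr, -0.0568 to 0.23 for Erbb3, -0.0327 to 0.18 for Areg, -0.18 to 0.21 for Hbegf and -0.12 to 0.50 for Errfi1. In male mice they were -0.0585 to 0.33 for Erbb2, -0.19 to 0.22 for Erbb3, -0.0202 to 0.26 for Areg, -0.12 to 0.26 for Ereg, -0.11 to 0.0605 for Hbegf and -0.12 to 0.18 for Errfi1. For the difference they were -0.15 to 0.25 for Erbb3, -0.17 to 0.14 for Areg, -0.16 to 0.24 for Hbegf and -0.12 to 0.51 for Errfi1. Over 8 mice they were -0.17 to 0.0539 for Erbb2, -0.0547 to 0.11 for Erbb3, -0.0978 to 0.0831 for Hbegf and -0.0641 to 0.22 for Errfi1. Between untreated sets they were -0.0450 to 0.64 for Egfr, -0.24 to 0.19 for Erbb3, -0.0408 to 0.37 for Hbegf and -0.24 to 0.35 for Errfi1. Total counts were lowest for Egfr, Ereg and Tgfa, with 1 to 32 UMIs per sum.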
